A study of Mus musculus with 36 samples.

Results

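The ureteric bud (UB) of the mouse kidney was compared with the mesenchymal populations that surround it, the nephron progenitors (NP) and the stromal progenitors (SP), by RNA sequencing of sorted cells at embryonic day 12.5 (E12.5). Of the 36 libraries of the series, the 12 made from UB, NP and SP cells of E12.5 kidneys were used, 4 of each type, and the 12 libraries of the same types from E11.5 served as a check. All cells came from CD1 mice, a wild-type outbred strain, with the ureter removed, and every sample was a pool of the kidneys taken from 1 litter. UB cells were sorted as positive for RET and EpCAM, NP cells as ITGA8 high and PDGFRA low, and SP cells as ITGA8 low and PDGFRA high, the mesenchymal cells after removal of cells positive for CD31 or for EpCAM and RET. The levels of Ret, Epcam, Itga8, Pdgfra and Pecam1 (CD31) therefore describe the sort. They stayed in the fit of all genes and were left out of the counts of list members below. The titles and the cell type labels place these UB samples at E12.5, whereas their cell source label says E11.5, and the E11.5 UB samples carry the reverse, so the day of the UB samples rests on the titles. A gene was called a bud gene when UB differed from NP and from SP in the same direction. Both comparisons share the 4 UB libraries, so the second is not independent of the first.

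The ureteric bud is an epithelial tube that grows out of the nephric duct into the metanephric mesenchyme and branches to form the collecting duct tree. Its tips respond to the mesenchymal ligand GDNF through the receptor RET and the co-receptor GFRA1, and the bud in turn secretes Wnt ligands that instruct the nephron progenitors. The mesenchyme around it holds Six2-positive progenitors of the nephron and Foxd1-positive progenitors of the stroma, and the stroma in turn modulates Ret in the bud through retinoic acid.

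The UB libraries held 20520209 to 22993144 reads counted on genes, the NP libraries 31147289 to 43682394 and the SP libraries 18559139 to 52535113, so that 3 reads, taken as the limit of detection, corresponded to 0.0605 to 0.163 normalised CPM (the reads of a gene scaled to a common library size, the unit of all levels given here). On the first principal component of the tested genes, which carried 56.7% of the variance, UB replicates 2 to 4 lay between 93.1 and 95.7. UB replicate 1 was at 45.1, between these and the mesenchyme, with NP at −13.1 to −10.9 and SP at −72.6 to −67.5. The correlation of log2 values over all genes was 0.978 to 0.980 between UB replicate 1 and the other UB libraries and 0.996 to 0.997 among those. The summed level of the nephron progenitor list was 685 CPM in UB replicate 1 against 71.9 to 116 in the other 3 UB libraries, and that of the stromal list 1218 against 81.6 to 128. Results are therefore given with all 12 libraries and, where the value moves, without UB replicate 1. Replicate 1 of each type also had the highest summed level of heat shock genes. Since these are bulk samples, fewer cells of a type in a pool and less RNA per cell cannot be told apart, and since each sample is a pool of 1 mouse's embryos the p-values measure the spread between such pools.

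The labelled cell type was checked with Ret, Epcam and Calb1. Calb1, which encodes the calcium-binding protein calbindin of the duct, was at 433, 682, 667 and 558 CPM in UB replicates 1 to 4, at 9.82, 2.53, 0.77 and 0.412 CPM in the NP and at 0.217, 3.39, 0.287 and 0.321 CPM in the SP libraries. The groups did not overlap, and the log2 difference was 7.53 ± 0.58 (SE) against NP and 8.38 ± 0.58 against SP (limma). These are given without a test, since only 3 mesenchymal libraries reached 1 CPM and Calb1 entered the comparison through its level in UB. Ret, a sort antigen, was at 337 ± 55.0 CPM (SD, n = 4) in UB against 3.27 ± 3.81 in NP and 4.37 ± 0.994 in SP, and Epcam at 557 ± 124 against 9.40 ± 5.03 and 6.18 ± 1.89. All 3 markers were thus high in every UB library and low in every mesenchymal one.

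Of 14543 genes that reached a level of 1 in 4 or more of the 12 libraries, 2614 (18.0%) were higher and 2139 (14.7%) lower in UB than in NP, and 3449 (23.7%) were higher and 3039 (20.9%) lower in UB than in SP (limma, adjusted p under 0.05). Without UB replicate 1 these shares were 19.0% and 16.6% against NP and 23.8% and 21.5% against SP. Under quantile normalisation the first split became 2328 higher and 2973 lower. In both comparisons 1796 genes (12.3%) were higher and 1095 (7.53%) lower, and without UB replicate 1 these numbers were 1968 (13.5%) and 1441 (9.91%). Protein-coding genes numbered 1737 in the higher and 1040 in the lower group. The smaller of the 2 log2 differences exceeded 1 in 1095 higher and 432 lower genes and exceeded 3 in 231 and 55, and without UB replicate 1 these numbers were 1190 and 635, and 268 and 102. The UB libraries did not overlap with any mesenchymal library for 1592 of the 1796 higher genes (1695 of all tested genes, or 11.7%, lay above in this way) and for 770 of the 1095 lower ones (965 of all tested, or 6.64%). For 771 genes fewer than 4 mesenchymal libraries reached a level of 1, so that they passed the filter only through UB, and 506 of them were among the higher genes, which this way of passing favours. Of the other 13772 genes, 1290 (9.37%) were higher. The shares of 12.3% and 7.53%, or 13.5% and 9.91% without UB replicate 1, are those against which the counts of list members are to be read. Since the lists were chosen with earlier results of these data known, those counts are descriptions.

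Other genes separated the bud from 1 mesenchyme. A further 1491 genes were higher in UB than in SP without being called against NP, and 611 were higher than in NP without being called against SP. The bud lay between the mesenchymes for the remaining calls made in both comparisons, below NP and above SP for 162 genes and above NP and below SP for 207. At the edge of the call, Prcp was the last gene inside on the higher side, with log2 differences of 0.85 against NP and 0.45 against SP, and Fdx1 the first outside with 0.43 and 0.65. On the lower side Syne3 was the last inside, with −1.02 and −0.80, and BC037039 the first outside, with −0.60 and −0.69.

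**Figure D1:**
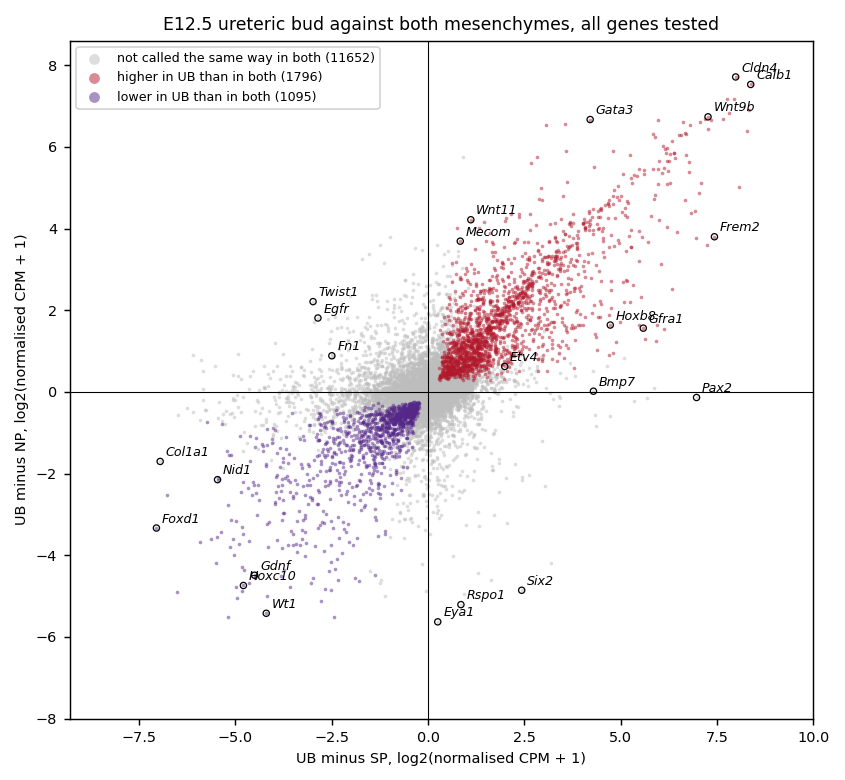
Each point is 1 of the genes tested, plotted by its log2 difference in level between UB and SP (x axis) and between UB and NP (y axis), both on the log2(normalised CPM + 1) scale with n = 4 libraries a group. The 1796 genes higher than in both fill the upper right as far as Calb1 and Cldn4, the 1095 lower than in both fill the lower left, and Pax2 and Bmp7 lie near 0 on the y axis while Six2, Eya1 and Rspo1 lie far below 0 on it only.

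Among the bud genes that stood highest above both mesenchymes, by the smaller of their differences, were Cldn4, Calb1, Cdh16, Esrp1, Krt8, Wnt9b, Cldn7, Cldn3, Mal2 and Tfcp2l1. They cover tight junction proteins (claudins 3, 4 and 7), the kidney cadherin Cdh16, the epithelial splicing regulator Esrp1, keratin 8, the apical trafficking protein Mal2, the Wnt ligand Wnt9b and the duct transcription factor Tfcp2l1. Cldn4 was at 592, 654, 869 and 788 CPM in UB, at 14.2, 2.04, 0.906 and 0.566 in NP and at 0.867, 3.81, 1.34 and 2.06 in SP, with log2 differences of 7.71 ± 0.57 and 7.99 ± 0.57. Esrp1 was at 173, 323, 319 and 307 CPM in UB and at no more than 3.91 CPM in any mesenchymal library. These genes were chosen for their difference, which is therefore a description, and Calb1, Cdh16, Esrp1, Wnt9b and Cldn3 entered the comparison only through UB. The smaller log2 difference ran from 6.60 (Tfcp2l1) to 7.71 (Cldn4). Within each mesenchyme the small remaining levels were uneven, with NP replicate 1 highest of the NP libraries for all 10 genes, as for Cldn4 above, and SP replicate 2 highest of the SP libraries for all 10.

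To show the sequence in front of these genes, the 250 bases before the RefSeq start (assembly GRCm38.p6) are given for the 6 of the 10 with an entry in the promoter table used. Calb1, Cdh16, Esrp1 and Mal2 are named only. Capitals mark CAGGTG or its reverse complement CACCTG, the E-box bound by the repressors of epithelial genes Zeb1, Zeb2, Snai1 and Snai2, which are themselves part of the comparison. Each line gives the gene, the place of the window and the bases 5′ to 3′ on the gene's strand.
Cldn4, chr5:134946935-134947184, minus strand: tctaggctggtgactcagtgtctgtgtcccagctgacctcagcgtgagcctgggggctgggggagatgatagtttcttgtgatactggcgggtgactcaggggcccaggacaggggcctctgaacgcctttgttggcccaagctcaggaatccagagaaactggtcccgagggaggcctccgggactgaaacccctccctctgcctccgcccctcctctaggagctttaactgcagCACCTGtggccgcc
Krt8, chr15:102004343-102004592, minus strand: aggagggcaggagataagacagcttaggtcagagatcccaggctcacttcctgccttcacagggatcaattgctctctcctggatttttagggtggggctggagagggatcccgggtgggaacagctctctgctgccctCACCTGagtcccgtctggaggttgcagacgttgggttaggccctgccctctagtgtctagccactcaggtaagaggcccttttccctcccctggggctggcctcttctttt
Wnt9b, chr11:103749822-103750071, minus strand: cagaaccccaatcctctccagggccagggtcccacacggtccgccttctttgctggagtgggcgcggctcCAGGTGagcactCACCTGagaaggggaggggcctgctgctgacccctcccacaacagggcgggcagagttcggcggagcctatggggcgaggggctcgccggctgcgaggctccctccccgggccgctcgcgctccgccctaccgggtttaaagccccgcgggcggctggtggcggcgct
Cldn7 (first start), chr11:69964529-69964778, plus strand: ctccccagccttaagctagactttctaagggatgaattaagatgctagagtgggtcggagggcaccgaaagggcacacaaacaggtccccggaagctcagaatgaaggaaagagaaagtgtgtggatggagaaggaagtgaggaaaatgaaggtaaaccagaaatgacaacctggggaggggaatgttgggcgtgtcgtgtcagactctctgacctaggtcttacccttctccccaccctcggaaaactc
Cldn7 (second start), chr11:69965171-69965420, plus strand: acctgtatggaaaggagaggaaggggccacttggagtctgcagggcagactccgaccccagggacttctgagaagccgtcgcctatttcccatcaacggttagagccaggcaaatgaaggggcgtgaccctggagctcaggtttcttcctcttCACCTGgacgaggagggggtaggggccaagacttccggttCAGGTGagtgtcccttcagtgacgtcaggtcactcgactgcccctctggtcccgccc
Cldn3, chr5:134985964-134986213, plus strand: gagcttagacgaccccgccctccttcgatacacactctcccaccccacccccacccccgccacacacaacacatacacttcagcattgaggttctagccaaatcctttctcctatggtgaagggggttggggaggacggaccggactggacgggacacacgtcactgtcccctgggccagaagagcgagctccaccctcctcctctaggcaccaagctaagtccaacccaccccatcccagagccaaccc
Tfcp2l1, chr1:118627695-118627944, plus strand: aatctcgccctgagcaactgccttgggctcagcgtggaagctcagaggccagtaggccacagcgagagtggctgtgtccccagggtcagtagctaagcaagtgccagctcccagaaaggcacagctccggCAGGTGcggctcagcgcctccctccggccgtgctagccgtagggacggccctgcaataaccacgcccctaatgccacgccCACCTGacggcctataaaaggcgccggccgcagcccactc
The E-box was found once in front of Cldn4, 14 bases before the start, and once in front of Krt8. Wnt9b, Tfcp2l1 and the second start of Cldn7 each had it in 2 copies, and those of Wnt9b began 180 and 168 bases before the start. The Cldn3 window did not hold these letters, nor did that of the first Cldn7 start.

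Across the table, 19.4% of 27025 genes had the E-box in this window on either strand, as did 18.6% of the 10236 tested genes with an entry. A gene with several starts was counted if any of its windows held the letters. The number of starts per gene was not compared between the groups. Among the genes higher in the bud than in both mesenchymes the share was 32.9% (436 of 1324), and among those with both log2 differences over 3 it was 45.3% (72 of 159). Of the genes lower than in both, 14.0% had it (110 of 784). In the lists of epithelial junction and of keratin and desmosome genes described next, 14 of the 20 genes with an entry had it, the sort antigen Epcam left out. AACCNGTT, the core recognised by Grainyhead-like factors, was rarer, at 1.94% of the tested genes with an entry, 2.34% of the higher, 5.03% of the steepest higher and 1.15% of the lower ones. For comparison, and chosen after these values were seen, the related E-box CAGCTG was in 14.4%, 16.6%, 11.9% and 18.2% of the same groups, and a rearrangement of the letters, GTGCAG or CTGCAC, in 17.9%, 21.5%, 16.4% and 17.0%. The median GC content of the windows was 60.4%, 60.0%, 60.8% and 62.8%. These shares describe letters in a window, and binding was not measured.

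The genes of the epithelial programme, listed with earlier results of these data known, moved one way. Apart from Epcam, a sort antigen, all 23 genes of the epithelial junction list and all 12 of the keratin and desmosome list were higher in UB than in both mesenchymes, with and without UB replicate 1, beside 12.3% of all genes tested. Of these, 11 junction genes (Cdh16, Cldn3, Cldn8, Ocln, Marveld3, Crb3, Esrp1, Ovol2, Rab25, Prom2 and Ap1m2) and 4 of the other list (Krt7, Krt23, Pkp3 and Ppl) passed the filter only through UB, which favours a call, and 12 and 8 passed without it. The median log2 difference of the junction list was 5.41 against NP and 6.71 against SP and that of the keratin list 4.16 and 5.19, where the medians of all tested genes were −0.04 and 0.02. Cdh1, which encodes E-cadherin of the adherens junction, was at 381, 676, 714 and 717 CPM in UB, at 3.64 to 12.6 in NP and at 0.325 to 3.16 in SP. Cdh3, P-cadherin, was at 599 ± 128 CPM (SD, n = 4) in UB, 46.0 ± 11.1 in NP and 10.7 ± 3.26 in SP. Krt18, the partner of keratin 8, was at 590 ± 153 CPM in UB against 7.0 ± 4.49 and 4.74 ± 1.80, and Dsp, which anchors keratin at desmosomes, at 210 ± 87.3 against 14.6 ± 9.28 and 3.53 ± 1.54. Jup, plakoglobin, which serves adherens junctions as well as desmosomes, was present throughout and differed less, with 347 ± 103 CPM in UB, 70.2 ± 2.60 in NP and 108 ± 27.6 in SP (log2 difference 2.23 ± 0.24 and 1.66 ± 0.24, adjusted p = 1.2e-05 and 0.00011).

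Of 16 transcription factors of the nephric duct and its derivatives, 13 were higher in UB than in both mesenchymes and none lower, beside 12.3% and 7.53% of all genes, with median log2 differences of 4.65 and 6.07. Gata3, required for the nephric duct, was at 153, 306, 320 and 287 CPM in UB, at 6.59, 1.05, 0.815 and 0.437 in NP and at 22.9, 11.4, 11.5 and 9.04 in SP. The log2 difference was 6.67 ± 0.47 against NP and 4.21 ± 0.47 against SP (adjusted p = 2.4e-07 and 9.3e-06), so that Gata3 was farther from NP than from SP.

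Emx2, needed for bud function after it enters the mesenchyme, was at 137, 211, 191 and 204 CPM in UB, at 4.60 to 6.35 in NP and at 0.229 to 0.968 in SP. Lhx1, which acts in the duct and later in the early nephron, was at 76.7, 67.6, 60.4 and 73.0 CPM in UB and at 20.9, 25.9, 27.0 and 39.9 in NP, a log2 difference of 1.29 ± 0.22 (adjusted p = 0.00048), while no SP library exceeded 1.09 CPM. Hoxb7, whose promoter is widely used to drive transgenes in the bud, was at 62.6 ± 8.16 CPM in UB, 18.9 ± 1.51 in NP and 6.15 ± 0.914 in SP, so it was graded rather than absent. Tfap2a, Tfap2b, Sim1 and the grainyhead-like Grhl2 were all at 1.85 CPM or less in each mesenchymal library and at 53.8 to 154 CPM in the UB libraries. Elf5, an ETS factor of epithelia, was low even in the bud, at 2.82, 10.5, 10.4 and 8.11 CPM, and at 0.158 or less in the mesenchyme. Sim1, Grhl2, Tfap2a, Tfap2b and Elf5 passed the filter only through UB, and of the 11 factors that passed without it 8 were higher.

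The 3 duct factors that did not separate the bud from both were shared with 1 of the mesenchymes. Pax2, a paired-box factor of both kidney lineages, was at 349, 608, 665 and 625 CPM in UB, at 414, 566, 756 and 728 in NP and at 1.24 to 8.99 in SP. The UB and NP ranges overlapped, and the log2 difference against NP was −0.14 ± 0.39 (adjusted p = 0.83). Pax8, its close relative, was likewise at 93.2 ± 11.3 CPM in UB and 107 ± 30.1 in NP (log2 difference −0.16 ± 0.32, adjusted p = 0.75) and at 1.0 ± 1.15 in SP. Gata2, in contrast, was at 51.0 ± 8.78 CPM in UB, 6.66 ± 6.46 in NP and 46.2 ± 36.7 in SP (log2 difference 0.40 ± 0.52 against SP, adjusted p = 0.58), and the SP libraries ranged from 21.4 to 100 CPM. Mecom, a zinc finger factor, was called in both comparisons and was also expressed in SP, with 284 ± 78.4 CPM in UB and 156 ± 31.9 in SP against 20.5 ± 3.93 in NP.

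**Figure D2:**
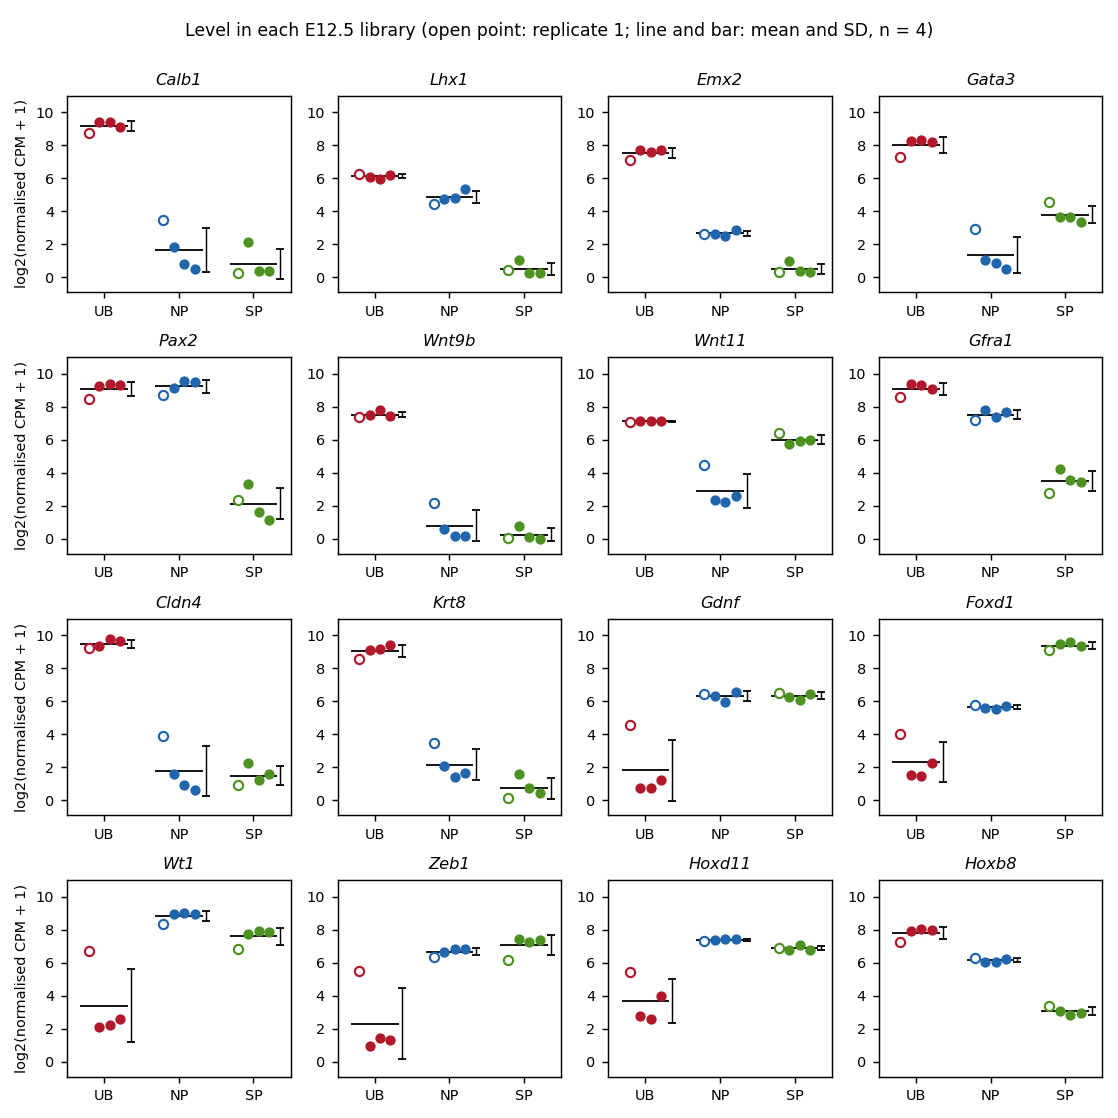
Levels of 16 genes in every E12.5 library on the log2(normalised CPM + 1) scale, with open points for replicate 1, filled points for replicates 2 to 4, and the mean and SD of n = 4 libraries. Calb1, Emx2, Wnt9b, Cldn4 and Krt8 are high in UB alone, Pax2 is shared with NP and Wnt11 largely with SP, and in Gdnf, Foxd1, Wt1, Zeb1 and Hoxd11 the open UB point lies above the other 3 UB points.

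The Ret pathway was described with 16 genes, from the receptor to its targets at the bud tip. Of the 15 other than Ret, which the sort used, 10 were higher in UB than in both mesenchymes and none lower, beside 12.3% of all genes, and without UB replicate 1 the number was 7, since Dusp6, Cxcr4 and Wnt11 were then no longer called in both. The median log2 differences of 1.35 and 1.74 were smaller than those of the duct factors. Gfra1, the GDNF co-receptor, was at 381, 662, 626 and 542 CPM in UB, at 147, 223, 166 and 203 in NP and at 5.74 to 17.8 in SP, with log2 differences of 1.56 ± 0.27 and 5.59 ± 0.27 (adjusted p = 0.00064 and 6.4e-09). The receptor Ret itself was at 8.93 CPM or less in every mesenchymal library, which the sort selected for.

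Etv4 and Etv5, ETS factors downstream of Ret, were expressed in every population. Etv4 was at 195, 270, 281 and 285 CPM in UB, at 152 to 180 in NP and at 54.2 to 78.9 in SP, without overlap, and its log2 difference was 0.62 ± 0.14 against NP and 1.99 ± 0.14 against SP (adjusted p = 0.0045 and 1.9e-07). Etv5 was at 166 to 262 CPM in UB and 89.3 to 173 in NP, so the groups overlapped (log2 difference 0.73 ± 0.22, adjusted p = 0.023). Myb, a factor reported among Ret-dependent genes, was at 42.2 ± 10.9 CPM in UB, 13.6 ± 2.18 in NP and 4.08 ± 0.568 in SP, and Sox8, an HMG-box factor of the tip, at 24.7 ± 6.02, 6.64 ± 0.423 and 1.71 ± 0.740. Its relative Sox9 was shared with the stroma, at 127 ± 16.3 CPM in UB, 77.4 to 178 in SP and 18.2 ± 11.7 in NP (log2 difference against SP 0.21 ± 0.37, adjusted p = 0.69).

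The feedback inhibitors of receptor tyrosine kinase signalling did not move as a group. Spry1, which restrains Ret, was at 252, 313, 267 and 290 CPM in UB, at 219, 85.3, 85.8 and 89.5 in NP and at 195, 60.8, 64.7 and 61.7 in SP, so that replicate 1 of both mesenchymes stood well above the others. The log2 difference was 1.35 ± 0.38 against NP and 1.74 ± 0.38 against SP (adjusted p = 0.015 and 0.0022). Spry2 was called in neither comparison, and Spry4 was above NP and below SP (log2 difference 0.94 ± 0.32 and −0.95 ± 0.32, adjusted p = 0.042 and 0.031). Dusp6, a phosphatase that acts on ERK, was at 180 to 187 CPM in all UB libraries, 35 to 95.8 in NP and 101 to 135 in SP. Its difference from SP of 0.66 ± 0.24 on the log2 scale (adjusted p = 0.036) was still 0.66, now with an SE of 0.26 and an adjusted p of 0.061, without UB replicate 1. Cxcr4, a chemokine receptor, was at 28.8 ± 3.51 CPM in UB and 16.1 ± 7.54 in NP, and its log2 difference from NP went from 0.90 ± 0.31 (adjusted p = 0.041) to 0.86 ± 0.34 (adjusted p = 0.072) in the same way. Met, the HGF receptor, and Mmp14, a membrane protease, were not bud genes, Met because its difference from NP of 0.92 ± 0.47 had an adjusted p of 0.16 and Mmp14 because SP stood above UB (586 ± 105 against 241 ± 14.8 CPM).

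Among the secreted signals of the bud, 8 of the 11 tested were higher in UB than in both mesenchymes and none lower, beside 12.3% and 7.53% of all genes, and 7 were higher without UB replicate 1. Wnt9b, which induces the nephron progenitors, was at 165, 180, 218 and 173 CPM in UB, at 3.48, 0.539, 0.136 and 0.129 in NP and at 0.746 or less in SP. The log2 difference was 6.74 ± 0.37 against NP and 7.27 ± 0.37 against SP. Wnt7b, a ligand of the bud stalk, and Wnt6 behaved in the same way, at 99.3 ± 34.8 and 171 ± 49.6 CPM in UB and at no more than 4.88 CPM in any mesenchymal library. Wnt7b was lowest in UB replicate 1, at 52.0 CPM against 95.3 to 131 in the other 3.

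Wnt11, a ligand of the bud tip, was nearly constant in the bud, at 133, 142, 140 and 137 CPM, but was also present in SP at 82.4, 52.9, 59.1 and 62.3 CPM, with 20.9, 4.05, 3.78 and 4.91 in NP. The log2 difference from SP was 1.11 ± 0.38 (adjusted p = 0.033), and without UB replicate 1 it was 1.13 with an adjusted p of 0.051. Npnt, the matrix ligand nephronectin through which the bud engages integrin alpha 8 of the mesenchyme, was at 317, 518, 498 and 486 CPM in UB, at 32.2 ± 3.46 in NP and at 2.79 ± 1.30 in SP. Lif, a cytokine that promotes the epithelial conversion of the progenitors, was at 12.4 to 20.8 CPM in UB and at 1.03 or less elsewhere. Shh, expressed by the ureter and the stalk, was low and uneven in the bud, at 2.58, 9.75, 11.1 and 12.7 CPM, and at 0.0956 or less in the mesenchyme. Wnt9b, Wnt7b, Shh and Lif passed the filter only through UB, and of the 7 signals that passed without it 4 were higher.

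The FGF and BMP ligands of the list were divided. Fgf9 was higher in UB (11.1 ± 2.20 CPM) than in NP (5.21 ± 0.169) and SP (0.142 ± 0.0711). Fgf20, in contrast, was highest in NP, at 4.03, 9.56, 6.66 and 7.25 CPM against 2.66 to 3.29 in UB and 0.505 to 1.35 in SP. Bmp7, which maintains the progenitors, was at 199 ± 16.2 CPM in UB and 198 ± 34.7 in NP (log2 difference 0.02 ± 0.17, adjusted p = 0.96) and at 9.35 ± 2.40 in SP. Bmp2 was higher in NP, at 28.3 to 32.5 CPM, than in UB, at 8.27 to 19.2.

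The signals that reach the bud from outside had the reverse pattern. Of 11 tested mesenchymal ligands, 6 were lower in UB than in both mesenchymes (beside 7.53% of all genes) and 1 higher. Gdnf, the ligand of Ret, was at 22.9, 0.710, 0.686 and 1.30 CPM in UB, at 60.4 to 95.2 in NP and at 66.1 to 91.2 in SP, so that UB replicate 1 stood between its own group and the mesenchyme. The log2 difference was −4.49 ± 0.66 and −4.50 ± 0.66, and −5.41 and −5.42 without UB replicate 1. Gdnf was thus as high in the cells sorted as stroma as in those sorted as nephron progenitors, at 79.9 ± 11.3 and 79.8 ± 14.9 CPM. The chemokine gene Cxcl12, a ligand of Cxcr4, was at 40.7 ± 23.3 CPM in UB, 96.7 ± 22.5 in NP and 751 ± 169 in SP.

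The other 4 lower ligands were Fgf10, Hgf, Rspo3 and Bmp4. Rspo1, an enhancer of Wnt signalling, separated UB from NP only, with 27.8, 0.426, 1.23 and 1.01 CPM in UB, 126 to 146 in NP and 0.813 to 1.47 in SP. Slit2, the ligand of the Robo receptors that confines Gdnf, was the member higher in the bud, at 318, 461, 419 and 424 CPM against 162 ± 41.1 in NP and 85.5 ± 22.6 in SP (log2 difference 1.34 ± 0.23 and 2.26 ± 0.23, adjusted p = 0.00049 and 3.8e-06).

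Of 18 receptors other than Ret, 8 were higher in UB than in both mesenchymes (12.3% of all genes), and 7 without UB replicate 1. The 2 that were lower, or 11.1%, and the 4 without UB replicate 1 stand beside 7.53% and 9.91% of all genes. Beside Gfra1, the higher ones were Fgfr2, Erbb2, Erbb3, Lgr5, Cxcr4, Notch1 and the Notch ligand Jag1, which had been put in this list. Fgfr2, the FGF receptor that the bud needs to branch, was at 241, 414, 433 and 389 CPM in UB, 187 to 228 in NP and 125 to 155 in SP. Its log2 difference was 0.76 ± 0.17 and 1.36 ± 0.17 (adjusted p = 0.0031 and 2.2e-05). Fgfr1 had the opposite direction, at 298 ± 63.3 CPM in UB, 916 ± 95.7 in NP and 644 ± 50.5 in SP, as did Ptch1, the Hedgehog receptor and target, at 92.9 ± 13.7, 166 ± 25.3 and 189 ± 20.8. Notch2 was at 223 ± 12.1 CPM in UB, 426 ± 96.5 in NP and 264 ± 41.0 in SP and was called against NP only. Robo2 and Fgfr3 joined the lower group only when UB replicate 1 was left out. Robo2 was at 127, 42.0, 43.3 and 45.3 CPM in UB, at 395 to 619 in NP and at 57.7 to 107 in SP, and its log2 difference from SP moved from −0.62 ± 0.33 (adjusted p = 0.15) to −1.0 (adjusted p = 0.0023).

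Among the genes lower in the bud, the 12 with the largest smaller difference were Foxc2, Cped1, Shisa3, Bmper, Foxc1, Hoxc10, Cdh11, Gdnf, Cntfr, Zeb1, Meis2 and Wt1. They include forkhead and homeobox factors of mesoderm, the mesenchymal cadherin Cdh11, the BMP modulator Bmper and the Wilms tumour factor Wt1. These genes were chosen for their difference, which is therefore a description and is given without a test. In all 12, UB replicate 1 was far above the other UB libraries while staying below every mesenchymal library. Foxc2 was at 75.2, 1.80, 2.47 and 3.62 CPM in UB, at 279 to 384 in NP and at 201 to 347 in SP. Its log2 difference was −5.51 ± 0.80 and −5.19 ± 0.80, and −6.61 and −6.30 without UB replicate 1.

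Wt1 was at 104, 3.27, 3.66 and 4.97 CPM in UB, at 326 to 525 in NP and at 114 to 246 in SP, and its log2 difference from NP moved from −5.42 to −6.53. Shisa3 was unequal in the mesenchymes, at 349 ± 111 CPM in NP and 1061 ± 293 in SP against 20.5 ± 30.2 in UB. Hoxc10 was almost equal in them, at 186 ± 13.7 and 192 ± 14.1 CPM against 16 ± 27.0. Over the 12 genes the smaller log2 difference ran from −4.20 to −5.19 with all libraries, and leaving out UB replicate 1 lowered both differences of each gene.

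The place of UB replicate 1 was also counted over all genes called without it. Of the 1441 genes lower in UB than in both when it was left out, it stood above the other 3 UB libraries for 1293 (89.7%, against 37.9% of all tested genes), and of the 1968 higher ones it stood below them for 1591 (80.8%, against 39.1%). These genes were chosen by the level of the other 3 UB libraries, which by itself favours such a place. The shares of all tested genes carry no such choice, so the counts are a description. The part of other cells in these values was not tested.

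Of 12 markers of the mesenchymal state, 6 were lower in UB than in both mesenchymes and none higher, and 9 were lower without UB replicate 1. Zeb1, the zinc finger repressor of epithelial genes, was at 44.5, 0.947, 1.69 and 1.55 CPM in UB, at 82.4 to 114 in NP and at 71.9 to 172 in SP (log2 difference −4.37 ± 0.78 and −4.77 ± 0.78). Cdh2, N-cadherin, was at 25.8 ± 29.4 CPM in UB, 258 ± 72.1 in NP and 221 ± 73.3 in SP. Vim, the intermediate filament vimentin, was at 289, 38.5, 39.9 and 73.9 CPM in UB, at 152 to 219 in NP and at 1167 to 1323 in SP, and joined the lower genes only without UB replicate 1 (adjusted p against NP 0.073 with it and 1.5e-05 without it). Twist1 and Fn1 were above NP and below SP. Fn1, fibronectin, was at 776 ± 79.1 CPM in UB against 431 ± 109 in NP and 4458 ± 965 in SP (log2 difference 0.88 ± 0.21 and −2.50 ± 0.21, adjusted p = 0.0053 and 7.2e-07).

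The markers of the mesenchymal populations themselves were mostly lower in the bud than in the population they mark. Of 14 nephron progenitor genes other than the sort antigen Itga8, 13 were lower in UB than in NP (14.7% of all genes), and 6 were lower than in both, 9 without UB replicate 1. Six2, which keeps the progenitors undifferentiated, was at 94.8, 7.43, 13.5 and 12.5 CPM in UB, at 422 to 771 in NP and at 1.15 to 6.35 in SP. It was therefore called above SP as well, by 2.43 ± 0.65 on the log2 scale and by 1.68 without UB replicate 1 (adjusted p = 0.0081 and 0.0057). Eya1, its cofactor, was at 43.8, 2.04, 3.02 and 4.35 CPM in UB and at 165 to 481 in NP. Sall1 was lower in UB than in both, at 53.1 ± 46.7 CPM against 471 ± 104 and 198 ± 73.0.

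All 14 stromal genes other than the sort antigen Pdgfra were lower in UB than in SP (20.9% of all genes), and 8 were also lower than in NP, 13 without UB replicate 1. Foxd1, the defining factor of the stroma, was at 15.4, 1.89, 1.78 and 3.77 CPM in UB, at 45.8 to 54.2 in NP and at 546 to 758 in SP. The log2 difference was −3.33 ± 0.43 and −7.05 ± 0.43 (adjusted p = 5.6e-05 and 4.5e-08). Nr2f2, a nuclear receptor, was at 70.6 ± 59.9 CPM in UB, 446 ± 98.5 in NP and 610 ± 149 in SP. Col1a1 and Col3a1, the fibrillar collagens, were at 178 and 382 CPM in UB replicate 1 and at 5.76 to 20.1 CPM in the other UB libraries. With that library in, neither was called against NP (adjusted p = 0.081 and 0.73), and without it both were lower than in NP (adjusted p = 7.7e-06 and 0.0016).

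**Figure D3:**
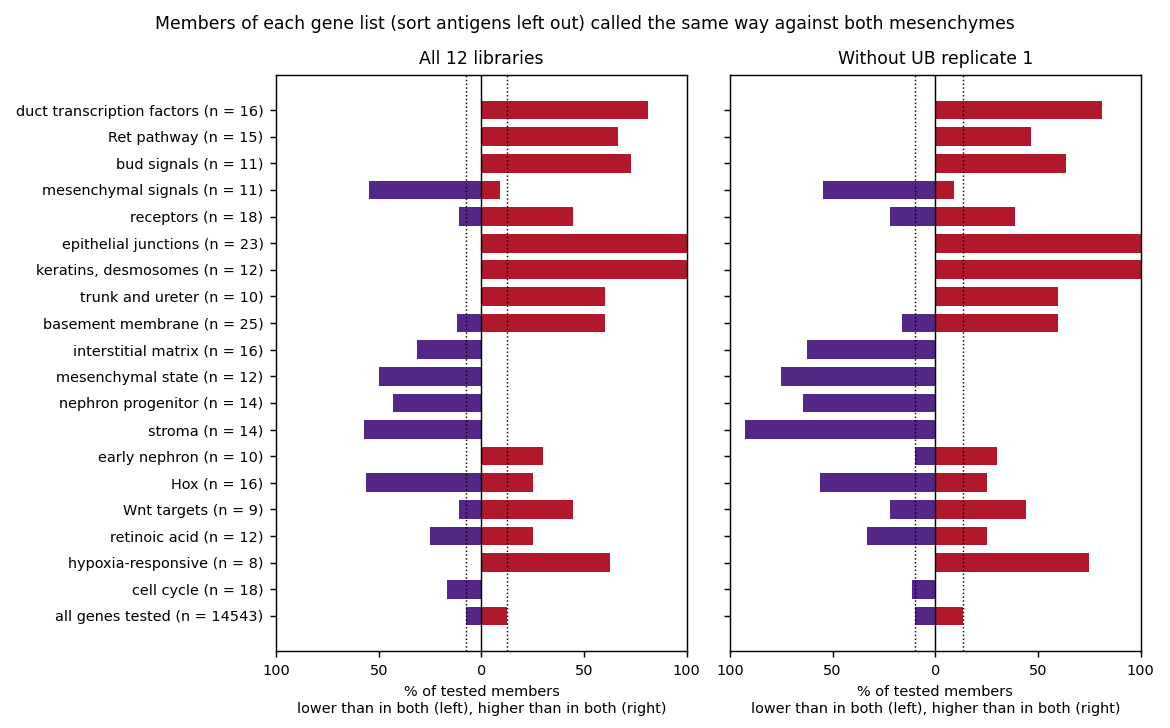
Share of the tested members of each gene list, the sort antigens left out, called higher (right) or lower (left) in UB than in both mesenchymes, with all 12 libraries in the left panel and without UB replicate 1 in the right panel, and the share over all genes tested in the bottom bar and dotted lines. The epithelial junction and keratin lists reach 100% in both panels, and the stromal list goes from 8 to 13 of its 14 members between the panels.

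Matrix genes divided by compartment. Of 25 tested genes of the basement membrane and its receptors, 15 were higher and 3 lower in UB than in both mesenchymes (12.3% and 7.53% of all genes), Lamb3, Itga2 and Itgb6 having passed the filter only through UB, and none of 16 interstitial matrix genes was higher while 5 were lower, 10 without UB replicate 1. Hspg2, the proteoglycan perlecan, was at 1415 ± 307 CPM in UB, 321 ± 146 in NP and 464 ± 117 in SP. The laminin chains Lamb1 and Lamc1 were at 1156 ± 226 and 1203 ± 233 CPM in UB, 445 ± 130 and 400 ± 99.6 in NP and 438 ± 89.0 and 410 ± 95 in SP, and Col4a1 was at 1139 ± 187, 535 ± 205 and 410 ± 93.3. These genes were thus expressed in all 3 populations, with log2 differences between 1.19 and 2.26. Lama1 and Lama5, alpha chains of laminin, were steeper, with 568 ± 134 and 920 ± 286 CPM in UB against 59.6 ± 21.7 and 143 ± 55.4 in NP and 55.7 ± 5.24 and 23.6 ± 4.40 in SP.

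The Fraser complex, a set of matrix proteins under epithelia, was split between the compartments. Fras1 and Frem2 were higher in UB than in both mesenchymes. Frem2 was at 1038, 1441, 1702 and 1765 CPM in UB, at 86.5 to 114 in NP and at 2.71 to 14.1 in SP (log2 difference 3.80 ± 0.34 and 7.44 ± 0.34, adjusted p = 2e-06 and 3.7e-09). Its partner Frem1 went the other way, at 62.0, 4.69, 4.80 and 5.41 CPM in UB, 135 ± 47.5 in NP and 360 ± 54.0 in SP. Nid1 and Lama4, the other lower members, were at 22.3 ± 33.8 and 28.4 ± 31.6 CPM in UB, with UB replicate 1 highest for both, at 73.0 and 75.8. Of the interstitial genes, Col1a2 was at 239, 11.4, 10.4 and 15.6 CPM in UB, 32.3 ± 14.7 in NP and 1584 ± 187 in SP. Fbn2, a fibrillin, was at 494 ± 25.6 CPM in UB and 407 ± 171 in NP, where it was not called (adjusted p = 0.43), and at 1425 ± 516 in SP.

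Hox genes of the trunk separated the bud from both mesenchymes in both directions. Of 16, 9 were lower and 4 higher in UB than in both, the same numbers with and without UB replicate 1. The lower ones were all 3 Hoxa and all 4 Hoxc genes of the list with Hoxd10 and Hoxd11. Hoxa10 was at 65.7, 6.39, 4.66 and 12.8 CPM in UB, 191 ± 34.6 in NP and 176 ± 22 in SP, and Hoxd11, one of the Hox genes that kidney formation requires, at 42.9, 5.73, 5.12 and 15.1, 168 ± 5.97 and 118 ± 10.6. The higher ones were Hoxb7, Hoxb8, Hoxd8 and Hoxd9. Hoxb8 was at 154, 244, 259 and 248 CPM in UB, 70.9 ± 6.86 in NP and 7.47 ± 1.40 in SP (log2 difference 1.64 ± 0.17 and 4.73 ± 0.17, adjusted p = 8.9e-06 and 1.1e-09). Next to it in the cluster, Hoxb9 lay between the mesenchymes, at 138 ± 13.3 CPM in UB, 278 ± 23.9 in NP and 42.8 ± 11.7 in SP.

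Genes of retinoic acid metabolism were split by enzyme. Aldh1a2, the main synthetic enzyme of the stroma, was at 92.3, 8.47, 8.45 and 17.1 CPM in UB, 252 ± 43.6 in NP and 1202 ± 183 in SP, and the binding protein Crabp2 was also lower in UB than in both. Aldh1a1, Aldh1a3 and the degrading enzyme Cyp26b1 were higher in UB than in both. Aldh1a3 was at 120, 121, 145 and 144 CPM in UB, at 0.679 to 3.05 in NP and at 1.25 to 6.24 in SP, and Aldh1a1, which passed the filter only through UB, at 55.5 ± 13.3 CPM in UB and 0.893 or less elsewhere (both named after their values were seen). Crabp1 was at 58.2, 1.33, 1.23 and 2.32 CPM in UB against 4.78 to 9.36 in NP and 348 to 434 in SP. Rara, a receptor, was at 109 ± 10.8, 102 ± 14.5 and 161 ± 20 CPM and was lower than in SP only.

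Of 9 Wnt target genes, Tcf7, Lgr5, Rnf43 and Znrf3 were higher and Nkd1 lower in UB than in both mesenchymes, and Notum was also lower without UB replicate 1. Rnf43 passed the filter only through UB. The single lower gene of the 9 is near the 7.53% of all genes. Tcf7, a nuclear effector of the pathway, was at 193, 248, 264 and 211 CPM in UB, 40.0 ± 7.50 in NP and 24 ± 2.92 in SP (log2 difference 2.49 ± 0.15 and 3.20 ± 0.15, adjusted p = 6.3e-08 and 4.4e-09). The feedback inhibitor Axin2 was at 81.0 ± 11.6 CPM in UB, 41.0 ± 16.4 in NP and 54.7 ± 20.9 in SP and was called against NP only (adjusted p = 0.013 and 0.096). Nkd1, another feedback inhibitor, was at 31.9 ± 15.9 CPM in UB, 56.6 ± 3.84 in NP and 113 ± 13.9 in SP.

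Of 8 tested hypoxia-responsive genes, 5 were higher in UB than in both mesenchymes and none lower, and 6 were higher without UB replicate 1, when Ankrd37 joined. Slc2a1, the glucose transporter GLUT1, was at 384, 541, 535 and 641 CPM in UB, 125 ± 17.2 in NP and 147 ± 10.1 in SP (log2 difference 2.05 ± 0.15 and 1.81 ± 0.15, adjusted p = 3.1e-07 and 6e-07), and Pdk1, which restrains the entry of pyruvate into mitochondria, at 106 ± 15.0, 40.1 ± 4.47 and 34.1 ± 7.28. Vegfa, the vascular growth factor, was not called, at 307 ± 60.4, 230 ± 49.9 and 308 ± 42.9 CPM. Of 18 cell cycle genes none was higher, and Mcm4, Ccne1 and Ccne2, which act in DNA replication and its onset, were lower in UB than in both, although Ccne2 was no longer called in both without UB replicate 1. Against NP alone 9 of the 18 were lower, with and without UB replicate 1, beside 14.7% and 16.6% of all genes. The remaining 2 of 18, or 11.1%, are near the 9.91% of all genes. Top2a, expressed in dividing cells, was at 404 ± 58.8 CPM in UB, 319 ± 12.4 in NP and 445 ± 80.0 in SP and was called in neither comparison.

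Of 10 tested genes of the trunk, ureter and mature collecting duct, Calb1, Wnt7b, Aqp3, Scnn1b, Car2 and Shh were higher in UB than in both mesenchymes, of which all but Car2 passed the filter only through UB. Car2, a carbonic anhydrase, was at 20.6 ± 2.55 CPM in UB, 2.98 ± 0.834 in NP and 6.51 ± 3.64 in SP. Hsd11b2, an enzyme of the mature collecting duct, was highest in NP, at 52.0 ± 9.08 CPM against 31.9 ± 5.56 in UB and 20.6 ± 4.80 in SP. Of the 10 tested genes of the early nephron, Lhx1, Jag1 and Ccnd1 were higher in UB than in both. Wnt4, made by the condensing progenitors, was at 69.3, 13.9, 18.8 and 20.2 CPM in UB, 144 ± 24.7 in NP and 20.6 ± 7.01 in SP.

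Lists of other cell types were counted in the same libraries. The 8 macrophage genes had a summed level of 44.3 to 83.9 CPM in UB against 0.679 to 2.15 in NP and 1.15 to 1.68 in SP. Since all 8 passed the filter only through UB, their calls carry no weight of their own. Csf1r, the macrophage growth factor receptor, was at 17.6, 17.4, 18.0 and 26.1 CPM in UB and at 1.25 or less in the mesenchyme, and Ptprc, the pan-leukocyte marker CD45, at 3.44 to 6.76 and 0.180 or less. Unlike the mesenchymal lists, this one was lowest in UB replicate 1. The mesothelial list summed to 4.34 to 7.59 CPM in UB against 0.431 or less elsewhere, and its 2 tested genes, Msln and Upk3b, also passed the filter only through UB. Of the 4 tested neural crest genes, Erbb3 and Tubb3 were higher in UB, at 365 ± 90.6 and 17.5 ± 3.67 CPM. Erbb3 is also a receptor of epithelia, and the defining crest marker Sox10 was at 0.737 CPM or less in UB.

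Of 8 endothelial genes other than Pecam1, a share near the 12.3% of all genes was higher in UB than in both, namely Egfl7 alone (18.2 ± 1.01 CPM in UB, 8.04 ± 0.707 in NP and 9.67 ± 1.65 in SP). The summed level of the whole list, Pecam1 included, was 129 CPM in UB replicate 1 against 22.2 to 25.9 in UB replicates 2 to 4, 22.2 to 45.2 in NP and 29.9 to 41.6 in SP, and Kdr, Emcn and Plvap were lower in UB than in both without UB replicate 1. The muscle list was at 113 CPM in UB replicate 1 against 4.64 to 6.62 in the other UB libraries, 200 to 226 in NP and 93.7 to 192 in SP. Des, the filament desmin, was at 65.8, 1.23, 1.42 and 3.57 CPM in UB, at 193 to 215 in NP and at 70.9 to 149 in SP and was lower in UB than in both. Myog and Myod1, factors of skeletal muscle, were at 6.84 and 3.64 CPM in it and at 0 in the other 3, where 3 reads correspond to no more than 0.145 CPM (Myod1 was named after its values were seen). None of the 6 tested erythroid genes was called against NP, while all 6 were lower than in SP (20.9% of all genes), whose summed level ranged from 286 to 2886 CPM.

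None of 10 immediate-early and 6 heat shock genes was called the same way in both comparisons. Against NP alone, 6 of the 10 immediate-early genes were higher in UB, with and without UB replicate 1, beside 18.0% and 19.0% of all genes. The heat shock list summed to 1389, 2718 and 6028 CPM in replicate 1 of UB, NP and SP, against 663 to 755, 608 to 791 and 687 to 816 in the other replicates. The immediate-early list was at 2521 to 2654 CPM in UB with little spread, at 474 to 654 in NP replicates 2 to 4 and 1879 in NP replicate 1, and at 1585 to 2273 in SP replicates 2 to 4 and 7205 in SP replicate 1. Without the 3 libraries of replicate 1, 2274 genes were higher and 1990 lower in UB than in both.

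**Figure D4:**
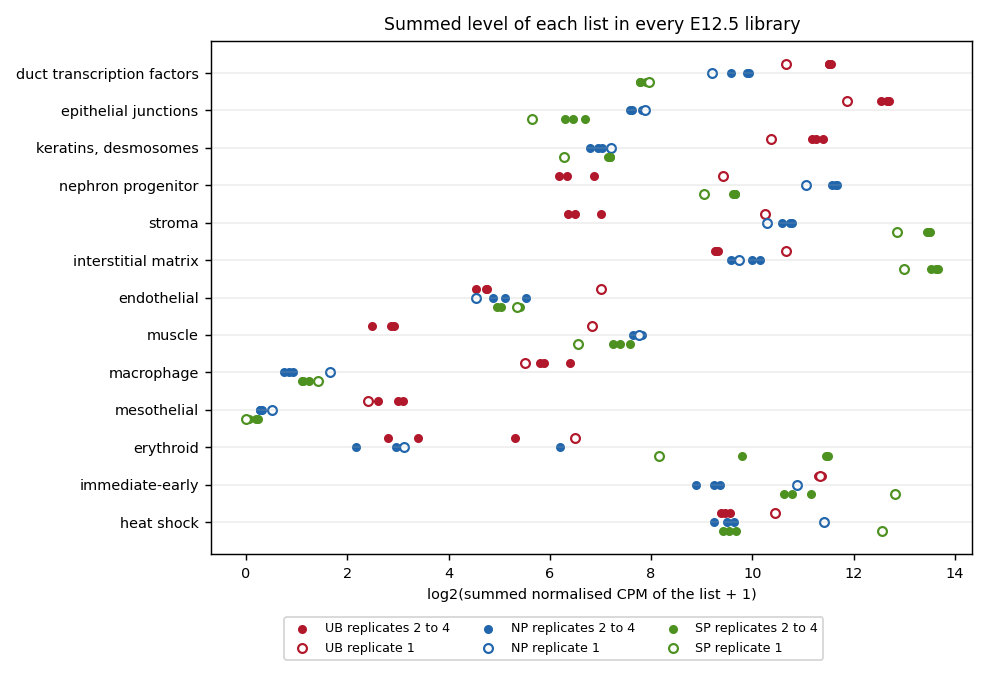
Summed level of 13 gene lists in every E12.5 library, on the log2(summed normalised CPM + 1) scale, with open points for replicate 1. For the nephron progenitor, stroma, interstitial matrix, endothelial and muscle lists the open UB point lies well above the other UB points, the macrophage list is high in all UB libraries, and the heat shock list is highest in the open point of each type.

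The E11.5 libraries, which the E12.5 calls did not use, were fitted in the same way. Of 14500 genes tested there, 2485 (17.1%) were higher and 2492 (17.2%) lower in UB than in both mesenchymes. Against NP alone 24.7% were higher and 26.5% lower in UB, and against SP alone 28.7% and 28.8%. Of the 1796 genes higher at E12.5, 1555 (86.6%) were higher in both at E11.5, which is 62.6% of the E11.5 genes, and of the 1095 lower genes 946 (86.4%) were lower, which is 38.0% of the E11.5 genes. At E11.5, 1743 and 1079 of them passed the filter. Calb1 was at 608 ± 68.8 CPM (SD, n = 4) in UB at E11.5 against 1.09 ± 0.727 in NP and 9.08 ± 6.44 in SP. All members of the junction and keratin lists, 13 of 16 duct factors and 10 of 16 Ret pathway genes (Ret included) were higher in UB than in both on both days, while Wnt11 was not at E11.5, at 75.9 ± 14.1 CPM in UB and 120 ± 39.3 in SP.

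Of the E12.5 bud genes, 1 was called in the opposite direction at E11.5. This gene, Hoxd9, was at 91.2 ± 15.3 CPM in UB, 59.3 ± 4.59 in NP and 60.1 ± 11.4 in SP at E12.5, and at 39.2 ± 2.90, 70.7 ± 6.51 and 52.8 ± 5.07 at E11.5. The change of its log2 difference from E11.5 to E12.5 was 1.43 against NP and 1.02 against SP (limma interaction, adjusted p = 0.0001 and 0.0014). It was singled out after its values were seen.

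**Figure D5:**
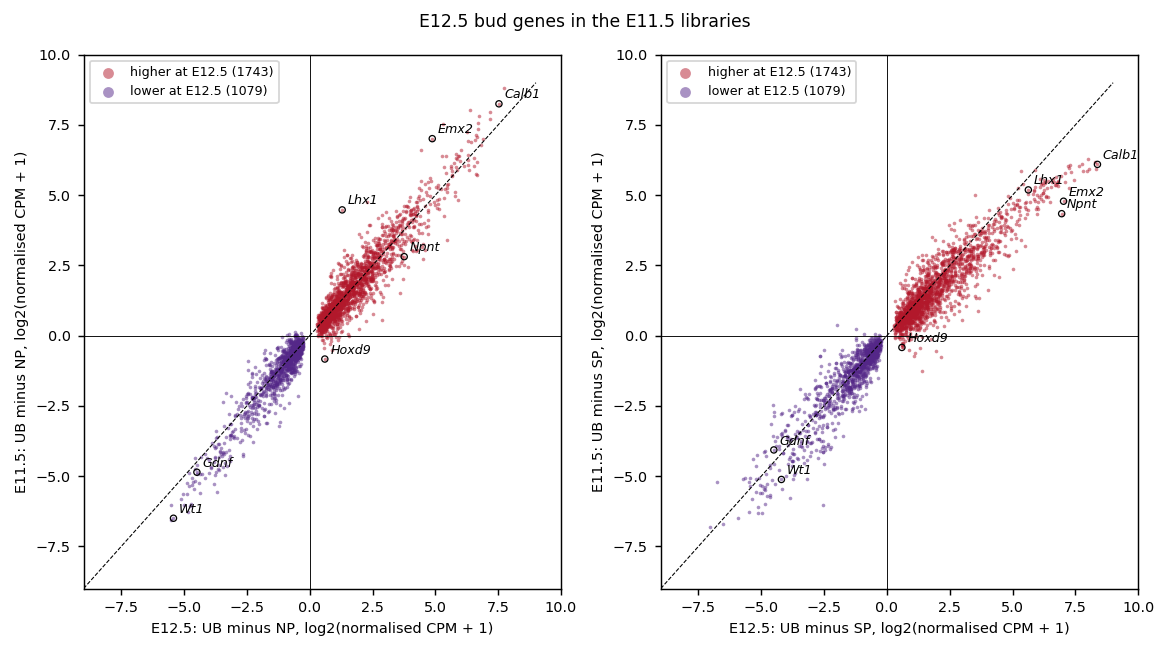
Log2 differences of the E12.5 bud genes between UB and NP (left) and between UB and SP (right), with the E12.5 value on the x axis and the E11.5 value on the y axis, both on the log2(normalised CPM + 1) scale, and the dashed line where they are equal. Most points lie in the same quadrant on both days, Hoxd9 lies below 0 on the y axis in both panels, and Lhx1 and Emx2 lie above the line in the left panel.

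The difference between bud and mesenchyme itself changed with the day for 280 of 15260 genes (1.83%) against NP and for 902 (5.91%) against SP by the interaction test, and without UB replicate 1 for 494 and 1352. With a pseudocount of 0.1 the numbers were 147 and 722, and in the fit blocked by replicate number 433 and 1132. Against NP, the duct factors Lhx1 and Emx2 were called, and in each the NP mean was higher at E12.5 than at E11.5 while the UB means differed less. Lhx1 went from 3.70 ± 4.86 to 28.4 ± 8.11 CPM in NP, with 71.7 ± 9.52 and 69.4 ± 7.07 in UB (change −3.18, adjusted p = 0.0039). Emx2 went from 0.473 ± 0.451 to 5.30 ± 0.748 in NP and from 6.31 ± 3.15 to 0.439 ± 0.353 in SP, while UB was at 184 ± 25.6 and 186 ± 33.5, so that its log2 difference fell by 2.13 against NP and rose by 2.25 against SP (adjusted p = 0.003 and 0.00097).

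Against SP, the difference of Emx2, Sim1, Tfcp2l1, Tfap2a, Elf3, Hoxb7, Gfra1, Myb, Fgf9, Bmp7, Npnt, Cdh16 and Krt8 was larger at E12.5. The changes ran from 0.90 (Hoxb7) to 2.61 (Npnt) on the log2 scale. At E12.5, Sim1, Tfap2a and Cdh16 had passed the filter only through UB, so their changes are a description. Some bud lists were higher in SP at E11.5 and others overlapped between the days. The summed level of Ret, Epcam and Calb1 in SP was 21.6 to 64.0 CPM at E11.5 and 9.52 to 15.0 at E12.5. That of the bud signals was 129 to 275 and 84.5 to 118, and that of the keratin and desmosome list 161 to 245 and 77.0 to 145. The ranges overlapped for the epithelial junction list (101 to 233 and 49.2 to 103), the Ret pathway (1255 to 1464 and 1232 to 1407) and the duct factors (203 to 375 and 220 to 246). The part of these levels in the result was not tested. For Npnt, SP was at 22.5 ± 11.1 CPM at E11.5 and 2.79 ± 1.30 at E12.5 and UB at 423 ± 21.2 and 455 ± 93.0. Krt8 was at 17.9 ± 8.97 and 0.800 ± 0.868 CPM in SP, and at 1070 ± 35.1 and 544 ± 125 in UB. Since the labels disagree on the day of the UB samples, a change of the UB level with the day cannot be told apart from a swap of the labels.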

How the data were processed

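RNA of sorted cells was made into stranded mRNA libraries and sequenced as read pairs. The authors trimmed the reads and aligned them (the submitters' processing notes name cutadapt and STAR) and normalised them with edgeR. The genome is written there as the human GRCh38, but the identifiers are mouse Ensembl genes, of which 22642 of 22761 (99.5%) are in GENCODE vM21 of GRCm38. The counting program and its use of strand are not given in the sources used here. The deposited signal values are CPM scaled by the authors with edgeR factors. The deposited table also holds columns of the authors' own comparisons, which were not used.

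In all libraries 100% of the values were whole multiples of 1 read within 0.001, so reads and depth were recovered. A gene was tested where its value reached 1 in 4 or more of the 12 libraries. The log2(value + 1) values entered limma 3.58.1 in R 4.3.3 (lmFit, then eBayes with a trend), one fit of the 12 libraries, with Benjamini-Hochberg adjustment over all tested genes and a threshold of 0.05. This scale understates differences of low genes. Called means past this threshold. On simulated counts, 98% and 100% of genes changed by 1 and by 2 on the log2 scale were called in both comparisons, and 0.0071% of unchanged genes. The simulation gave every gene the same dispersion, changed no genes of low level and held no library set apart like UB replicate 1. Its shares therefore check the code and do not describe the real libraries. edgeR 4.0.16 on the recovered reads called 1759 genes higher and 964 lower in UB than in both mesenchymes.

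Replicate numbers come from the titles. The UB libraries were not treated as paired with NP or SP. Named are the label markers, all members of the duct factor, Ret pathway and bud signal lists, the 12 bud genes with the largest smaller difference in each direction (predicted genes left out), and of each other list the 4 members of highest mean and those called against its direction. Members named beyond this rule were chosen after their values were seen. Some genes that the rule takes in are not reported here. The members and lists were chosen with earlier results of these data known. Promoter windows come from RefSeq, assembly GRCm38.p6, matched by symbol. Python 3.11.15, pandas 2.3.3, numpy 2.4.6, scipy 1.17.1 and matplotlib 3.10.9 were used. Alternatives were other scalings, filters, a pseudocount of 0.1, fits of 8 or of all 36 libraries, a replicate block, edgeR, DESeq2 1.42.0, a test against a log2 difference of 1 and leaving out each library. Libraries of the ES-derived cells entered only the fit of all 36.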

Additional observations from a re-analysis of the deposited data

Results flagged for a closer look

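Single libraries were compared with the other 3 of their group by the gap between the extreme library and its neighbour, divided by the range of the group, for 29 list sums and 62 named genes in each of the 3 groups, against Dixon's 95% critical value for 4 samples. Chance exceeds this in about 1 of 20 groups. UB replicate 1 stood apart by its summed levels of nephron progenitor genes (685 CPM), stromal genes (1218), mesenchymal state genes (1612), interstitial matrix (1617), endothelial (129), muscle (113) and heat shock genes (1389) on the high side, and of duct transcription factors (1631), basement membrane genes (7353) and neural crest genes (253) on the low side. Among the named genes it was apart on the high side for 12, which are the 12 lowest bud genes, and on the low side for 7 (Epcam, Tfcp2l1, Etv4, Myb, Npnt, Esrp1 and Cldn3).

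NP replicate 1 stood apart by its label markers (35.6 CPM), macrophage (2.15), immediate-early (1879) and heat shock genes (2718), and for 11 named genes on the high side, among them Ret, Gata3, Wnt9b and Cldn4, and 2 (Met and Wt1) on the low side. NP replicate 2 was apart by its erythroid genes, at 72.4 CPM. SP replicate 1 was apart by its high Ret pathway (1407 CPM), bud signal (118), immediate-early (7205) and heat shock sums (6028) and by its low sums of sort antigens (233), keratins and desmosomes (77.0), nephron progenitor (529) and stromal genes (7424), for 5 named genes on the high side (Spry1, Spry2, Sox8, Myb and Bmp2) and for 2 on the low side (Zeb1 and Meis2). SP replicate 2 was apart on the high side for 10 named genes, all of them epithelial or duct genes, and UB replicate 3 for 1, Fgf20. Among the 10, Elf5 was at 0.0403 CPM in SP replicate 2, below the limit of 3 reads (0.0605 CPM).

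The difference between bud and mesenchyme changed from E11.5 to E12.5, by the limma interaction test, for these named genes. Against NP the log2 difference changed by −3.18 for Lhx1 and −2.13 for Emx2. Against SP it rose by 2.25 for Emx2, 1.11 for Sim1, 1.62 for Tfcp2l1, 1.40 for Tfap2a, 1.38 for Elf3, 0.90 for Hoxb7, 1.26 for Gfra1, 1.44 for Myb, 1.23 for Fgf9, 2.29 for Bmp7, 2.61 for Npnt, 2.08 for Cdh16 and 2.38 for Krt8. Sim1, Tfap2a and Cdh16 had passed the E12.5 filter only through UB, so their changes are a description. For the other genes the adjusted p-values ran from 1.8e-05 (Bmp7) to 0.035 (Hoxb7), and the label of the day of the UB samples is in doubt.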

How the results depend on the processing

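Against a log2 difference of 1, 1225 genes were called between UB and NP and 1799 between UB and SP. The share of all 22761 genes that was higher in UB than in both mesenchymes went from 7.89% to 2.93% (667 genes) and that of lower genes from 4.81% to 0.505%. Leaving out each library in turn gave 3882 to 5290 calls against NP, 5572 to 6918 against SP, 6.90% to 8.65% higher genes (1571 to 1968) and 3.42% to 6.33% lower genes (779 to 1441). Without the 3 libraries of replicate 1 (chosen after seeing the data), 8.74% (1990) were lower. With no filter on low values 2357 genes were higher and 1062 lower, and with a value of 1 in 8 of the 12 libraries 1276 and 1034. Quantile normalisation gave 1645 higher and 1502 lower genes and moved the median difference of all genes from NP from −0.04 to −0.13. The difference from NP changed with the day for 280 genes, for 494 without UB replicate 1 and for 147 with a pseudocount of 0.1. The cause of these shifts was not tested.

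Deviations from the group means correlated at −0.07 to 0.22 between same-numbered UB and NP libraries, at 0.01 to 0.18 between UB and SP and at 0.53 to 0.69 between NP and SP, and in each UB comparison 3 of the 4 UB libraries correlated best with their own number. With the replicate numbers as a block, 2096 genes were higher and 1413 lower than in both, 433 changed with the day against NP, and with UB replicate 1 also left out (chosen after seeing the data) 2412 were higher and 9.61% (2188) lower.

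Of 119 called values of named genes, 99 kept their direction and call under every alternative that gave a value for them and none reversed. The stricter filter and DESeq2 gave none for some genes, and of the 67 values with a result under every alternative 48 kept direction and call. Of those not called, Pax2 (UB minus NP, −0.14) became 0.03 without UB replicate 1 and with the block, and ran from −0.31 (without NP replicate 1) to 0.076 (without UB replicate 1) when single libraries were left out. Bmp7 (UB minus NP, 0.02) became −0.067 with upper-quartile scaling, −0.06 without the 3 libraries of replicate 1, −0.02 without UB replicate 1 and with the block, and ran from −0.12 (without NP replicate 1) to 0.082 (without NP replicate 4). Levels under 0.163 CPM were below 3 reads in the shallowest library.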

Other observations

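Values chosen after they were seen may be of use to others who analyse these libraries. Mki67, a marker of dividing cells, was at 6.45 CPM in NP replicate 2 against 263 to 455 in the other NP libraries and at 88.3 CPM in SP replicate 2 against 272 to 501, while UB replicate 2 was at 378 and the other UB libraries at 226 to 323. Top2a, another such marker, was at 336 CPM in NP replicate 2 against 310 to 320 in the others. Lama3, a laminin alpha chain of epithelia, was highest in replicate 2 of every type, at 35.8 CPM in UB against 0.737 to 5.22, 10.8 in NP against 0.462 to 1.97, and 16.8 in SP against 0.379 to 1.29.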
